A study of Homo sapiens with 10 samples.

Results

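The interferon-stimulated genes described here are 42 genes that cells are known to switch on when they sense an interferon. They were taken as a named list and matched by gene symbol, through the sequence record of each row in Kasumi-1 and by summing transcripts to genes in NB4. All 42 were found among the 21972 genes of NB4 and 27 among the 10795 gene symbols of Kasumi-1. The other 15 (IFI27, IFITM1, IFITM2, IFITM3, MX1, MX2, OAS2, OAS3, STAT2, IRF1, IRF9, EPSTI1, PARP14, SP110 and LGALS3BP) were not analysed here in Kasumi-1.

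RNA was sequenced from 2 human leukaemia cell lines that had been given JOA at 1 µM, or a control, for 48 h. Kasumi-1, an acute myeloid leukaemia line with the RUNX1-RUNX1T1 fusion, had 3 JOA and 3 control libraries, with values in FPKM. NB4, an acute promyelocytic leukaemia line with the PML-RARA fusion, had 2 JOA and 2 control libraries, with values that sum as TPM. The labels give JOA as a code name only, do not say what the control held, name no interferon and do not say whether libraries of a group came from separate cultures, so that p-values measure the spread between these libraries alone, which may be technical.

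Type I interferons bind the receptor chains IFNAR1 and IFNAR2, whose kinases TYK2 and JAK1 phosphorylate STAT2. STAT2 and IRF9 belong to the factor ISGF3, which binds an element called the ISRE in the promoters of its targets, and a further element of interferon-induced promoters is called the GAS. The products block viruses at many steps: some sense or cut foreign RNA, some hold virions at membranes, and one, the ubiquitin-like protein ISG15, is joined to other proteins by its own chain of enzymes.

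Kasumi-1 libraries lay within 91.4 to 100% of the deepest one in relative depth, read from the whole-fragment steps of the deposited FPKM, and the depth of NB4 is unknown because TPM keeps none. The myeloid markers had summed levels of 5370 to 5943 FPKM in JOA and 5450 to 6175 FPKM in control Kasumi-1 libraries over the 4 that matched, and of 5292 to 6655 TPM in JOA and 8839 to 8975 TPM in control NB4 libraries over all 9. Most of each sum was MPO, at 5289 to 5856 FPKM in JOA and 5371 to 6096 FPKM in control Kasumi-1 libraries. In NB4, MPO was at 5886 and 4679 TPM with JOA and 7983 and 7693 TPM in controls. ELANE there was at 0.409 and 0.0786 TPM with JOA and 1.002 and 1.586 TPM in controls. With JOA in NB4, MPO, ELANE, AZU1, CTSG, PRTN3 and CEBPA lay below controls, PTPRC and CD33 lay above, and SPI1 overlapped. RUNX1T1, which marks Kasumi-1, was at 17.1 FPKM or more in every library of that line and at most 0.0159 TPM in NB4. Plasmacytoid dendritic cells are known as strong producers of interferon, and their matched markers summed to at most 0.0277 FPKM in JOA and 0.0526 FPKM in control Kasumi-1 libraries (1 of 2 matched), and to at most 0.289 TPM in JOA and 0.0852 TPM in control NB4 libraries (1 of 2 matched). Of the T cell markers, CD3D alone passed 1 TPM in NB4, at 31.8 and 47.3 TPM in JOA and 26.1 and 27.4 TPM in control libraries, and 0 of 4 matched in Kasumi-1. B cell markers summed to 0.961 to 1.68 FPKM in JOA and 0.722 to 1.69 FPKM in control Kasumi-1 libraries (1 of 3 matched) and to 6.22 to 7.02 TPM in JOA and 5.84 to 5.97 TPM in control NB4 libraries (2 of 3). Erythroid markers reached at most 0.013 FPKM in JOA and 0.0684 FPKM in control Kasumi-1 libraries (2 of 3 matched) and 0.583 TPM in JOA and 0.153 TPM in control NB4 libraries (3 of 3). The epithelial and fibroblast list gave 33.1 to 43.3 FPKM in JOA and 35.5 to 44.4 FPKM in control Kasumi-1 libraries, where EPCAM was the only marker matched (1 of 4). It gave 14.8 to 16.3 TPM in JOA and 10.7 to 15.8 TPM in control NB4 libraries (4 of 4 matched). In bulk RNA, fewer cells of a type and less RNA per cell cannot be told apart, and the part of these markers in the results below was not tested.

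Promoter windows of 300 bases (250 before and 50 after the start site, from RefSeq on GRCh38.p14) were found for 33 of the 42 genes and searched on both strands for an ISRE core (GAAA, 2 bases of any kind, GAAA) and the GAS core TTCNNNGAA, letting matches overlap. An ISRE core lay in 21 of the 33 windows (63.6%), against 996 of 27305 promoters in all (3.65%), and a GAS core in 10 (30.3%), against 2152 (7.88%). The windows printed here belong to genes that the results turn on: UBE2L6 and IFI35, whose JOA and control libraries were apart in NB4, and ISG15, HERC5 and IFI6, whose libraries overlapped. They were picked and do not stand for their groups. Some overlapping genes, such as OAS1 and HERC6, held no ISRE core, and the window of STAT2, also apart in NB4, is not printed. Each is given as the 250 bases before the start site, read 5′ to 3′ on the strand of the gene. Capitals mark ISRE cores on either strand in ISG15 (2 overlapping matches), HERC5 (3, of which 2 overlap) and IFI6 (3), and the GAS core in IFI35 (1), which holds no ISRE core. The UBE2L6 window holds neither core. This window, like that of ISG15, lies inside the GENCODE span of its gene, so bases before that span were not searched.
UBE2L6 (chr11:57567936-57568185, minus strand): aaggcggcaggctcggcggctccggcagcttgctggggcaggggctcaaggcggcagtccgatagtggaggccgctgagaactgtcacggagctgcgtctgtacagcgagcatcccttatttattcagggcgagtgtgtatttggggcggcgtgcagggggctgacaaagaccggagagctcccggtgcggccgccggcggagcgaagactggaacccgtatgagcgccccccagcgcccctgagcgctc
IFI35 (chr17:43006534-43006783, plus strand): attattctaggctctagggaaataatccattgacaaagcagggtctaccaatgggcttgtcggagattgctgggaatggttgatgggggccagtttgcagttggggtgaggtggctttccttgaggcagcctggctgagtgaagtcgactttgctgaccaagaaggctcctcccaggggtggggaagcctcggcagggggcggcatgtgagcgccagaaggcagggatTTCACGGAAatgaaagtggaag
ISG15 (chr1:1013247-1013496, plus strand): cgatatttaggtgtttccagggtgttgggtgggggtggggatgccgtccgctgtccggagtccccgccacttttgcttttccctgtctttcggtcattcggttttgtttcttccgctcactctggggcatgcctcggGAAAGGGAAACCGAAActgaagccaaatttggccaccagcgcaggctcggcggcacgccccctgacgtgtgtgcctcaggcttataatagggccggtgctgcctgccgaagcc
HERC5 (chr4:88456869-88457118, plus strand): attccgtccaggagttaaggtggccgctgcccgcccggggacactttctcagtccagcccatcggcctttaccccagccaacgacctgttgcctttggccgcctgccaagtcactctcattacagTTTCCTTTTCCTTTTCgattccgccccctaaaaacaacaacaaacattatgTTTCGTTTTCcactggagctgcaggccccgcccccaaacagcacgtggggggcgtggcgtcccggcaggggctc
IFI6 (chr1:27672193-27672442, minus strand): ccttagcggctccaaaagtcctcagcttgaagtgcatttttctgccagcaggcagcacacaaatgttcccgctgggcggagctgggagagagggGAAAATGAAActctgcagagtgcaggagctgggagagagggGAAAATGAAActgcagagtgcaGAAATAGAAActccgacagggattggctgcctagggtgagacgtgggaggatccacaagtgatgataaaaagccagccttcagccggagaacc

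A match is a description of letters and not of a bound site. Among the 6 genes that were separated with JOA in NB4, a window was found for 3 and 0 of these held an ISRE core, and among the 35 whose libraries overlapped a window was found for 29, of which 20 held one. In Kasumi-1 a window was found for 2 of the 4 separated genes, of which 1 held an ISRE core, and for 10 of the 11 that overlapped, of which 7 did. JOA above control held for 6 of the 41 members tested in NB4, beside 32.5% of all genes. In Kasumi-1 it held for 4 of the 15 tested, beside 16.0% of all features. The windows of separated genes are too few for the shares with an ISRE core to be compared.

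The interferon-stimulated genes as a group stayed close to their control levels in Kasumi-1, and in NB4 they were uneven between libraries of the same group. UBA7, which activates ISG15 for conjugation, was the member with the largest fitted change among those separated in Kasumi-1 and was also separated in NB4. UBE2L6, the next enzyme of the chain, was separated in both lines on the deposited values. Its change in Kasumi-1 was small and shrank further under median-ratio scaling. ISG15 itself and its ligase HERC5 overlapped between JOA and control libraries in both lines. In none of the fits run was a member called lower with JOA.

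In Kasumi-1, 15 of the 27 matched members passed the filter of 1 FPKM or more in at least 3 libraries and were tested, and 12 lay under it (IFI44, IFI44L, IFIT1, IFIT5, OAS1, OASL, USP18, RSAD2, XAF1, SAMD9L, TRIM22 and GBP1). The filter asks for 3 libraries of either group, so a member can pass through 1 group alone. The median log2 change over the 15 was 0.12, with 12 positive and 3 negative, beside a median of 0.05 over all 12101 features tested, of which 61.9% were positive. With the libraries rescaled by median ratios the numbers were 11 positive and 4 negative with a median of 0.08, beside -0.01 and 47.5% positive over all features. None of the 15 was called by limma at an adjusted p under 0.05 (0% of all features were), and 3 of the 15 (IRF7, SAMD9 and UBA7, all higher with JOA) had an unadjusted p under 0.05, beside 16.4% of all features and 11.7% in that direction. Same-numbered JOA and control libraries of Kasumi-1 deviated together, and with that number as a block limma called 1 of the 15, UBA7, as higher with JOA, beside 8.14% of all features called and 6.08% called higher. That block called 736 features higher and 249 lower with JOA, but 454 higher and 661 lower after median-ratio scaling, and leaving out any 1 pair left 0 calls.

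In NB4, 41 of the 42 members passed the filter of 1 TPM or more in at least 2 libraries, and GBP1 lay under it. Their median log2 change was 0.28, with 35 positive and 6 negative, beside a median of 0.08 over all 12949 genes tested, of which 66.2% were positive. Median-ratio scaling gave 28 positive and 13 negative with a median of 0.18, beside 49% positive over all genes. None of the 41 was called by limma (0.00772% of all genes were), and 3 (IFI35, UBE2L6 and UBA7, all higher with JOA) had an unadjusted p under 0.05, beside 10.6% of all genes and 8.19% in that direction. When the variance was instead estimated from the libraries of both lines, on the 26 members and 7243 genes found in both, limma called UBA7 and UBE2L6 as higher with JOA, beside 2.14% of all genes called and 1.67% called higher. That fit takes the spread to be equal in both lines, although their tables differ in unit and were normalized separately. With it the standard error fell from 0.17 to 0.15 for UBA7 and from 0.15 to 0.12 for UBE2L6. For IFI35 it rose from 0.18 to 0.19. The median of the members depended on single libraries: it was -0.03 without JOA 1 and 0.66 without JOA 2, and it was 0.57 without control 1 and -0.01 without control 2.

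**Figure D1:**
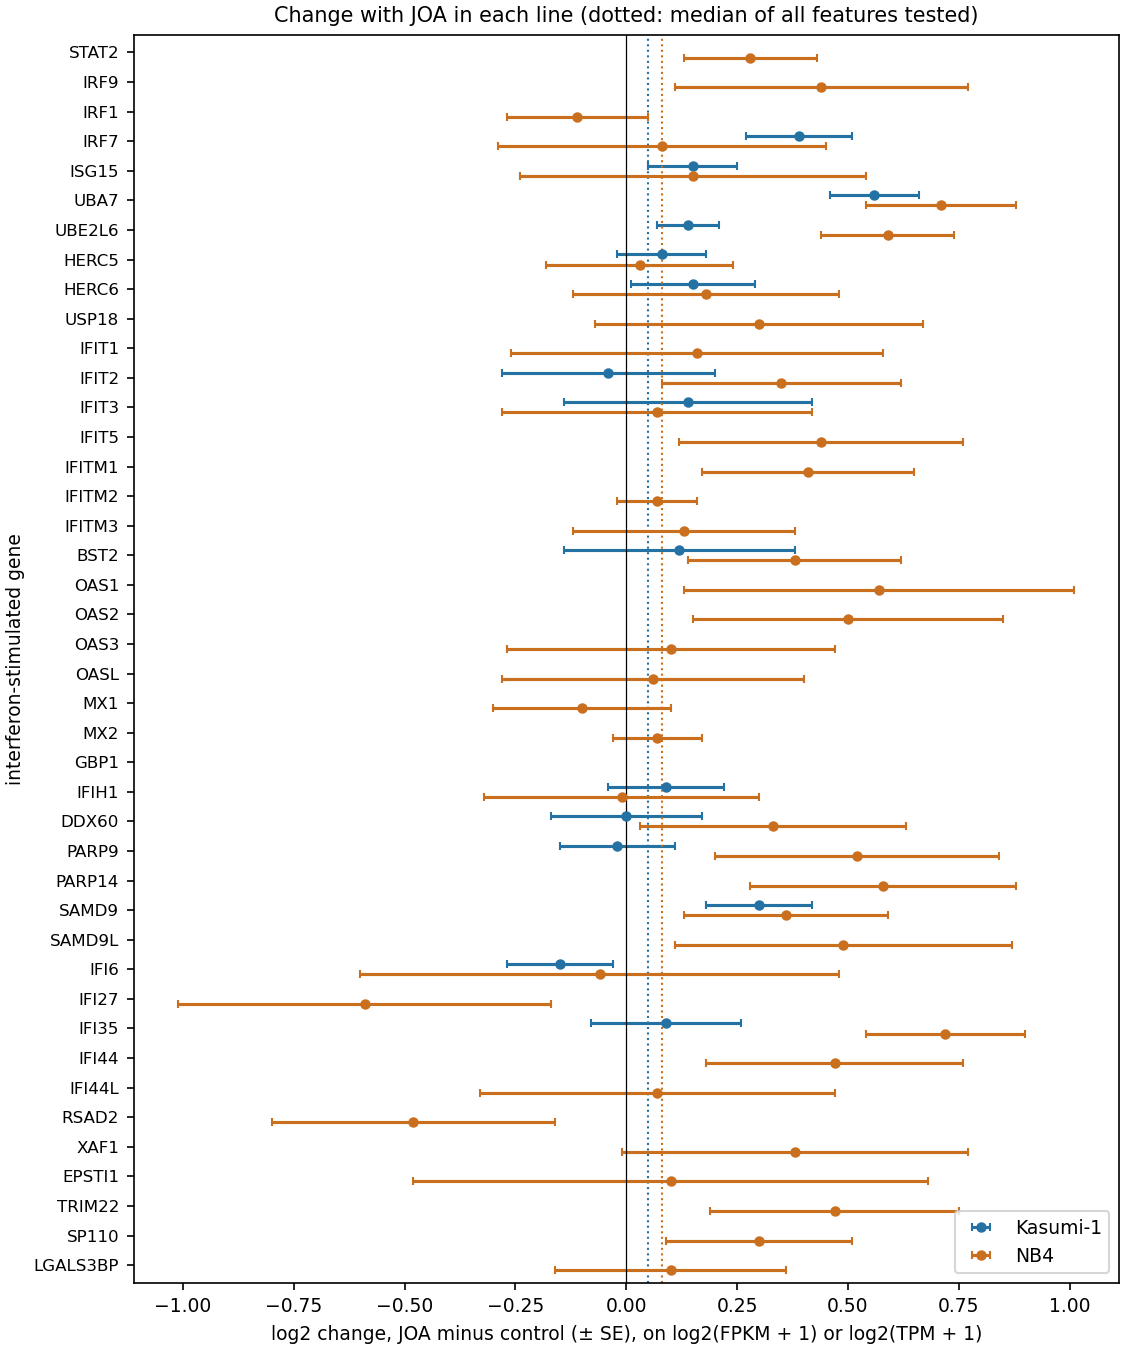
Log2 change, JOA minus control, of each tested interferon-stimulated gene (points, with the standard error of the unpaired limma fit as bars) in Kasumi-1 (blue) and NB4 (orange), on log2(FPKM + 1) and log2(TPM + 1); dotted lines mark the median of all features tested, 0.05 in Kasumi-1 and 0.08 in NB4. UBA7 lies right of both lines at 0.56 in Kasumi-1 and 0.71 in NB4, and the NB4 bars are long, up to 0.58 for EPSTI1.

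The ISG15 conjugation system consists of ISG15, the activating enzyme UBA7, the conjugating enzyme UBE2L6, the ligase HERC5, its relative HERC6, and USP18, which removes ISG15 and also restrains the interferon receptor. In Kasumi-1, UBA7 (chr3:49805207-49813946, minus strand, GENCODE on GRCh38) was at 3.98, 5.17 and 4.50 FPKM in JOA libraries 1 to 3, against 2.54, 2.88 and 2.83 FPKM in control libraries 1 to 3. Every JOA library was above every control library, as was the case for 4 of the 15 tested members and for 16.0% of all features. The reverse, every JOA library below every control library, held for 0 of the 15, beside 7.10% of all features. The means were 4.55 ± 0.593 FPKM with JOA and 2.75 ± 0.183 FPKM in controls (SD, n = 3 each), a log2 change of 0.56 with a standard error of 0.10 (limma adjusted p = 0.116) and, with the number as a block, of 0.07 (limma adjusted p = 0.029). These values rest on at least 301, 398 and 340 fragments in JOA libraries and 209, 229 and 213 in control libraries. The spread between libraries behind the standard error includes counting error.

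In NB4, UBA7 was at 60.2 and 52.8 TPM in JOA libraries 1 and 2, against 40.2 and 28.8 TPM in control libraries 1 and 2. The JOA libraries were again above both controls, as was the case for 6 of the 41 tested members and for 32.5% of all genes, and the reverse held for 0 of the 41, beside 11.0% of all genes. With means of 56.5 ± 5.23 TPM for JOA and 34.5 ± 8.1 TPM for controls (SD, n = 2 each), the log2 change was 0.71 with a standard error of 0.17 (limma adjusted p = 0.262), and limma with shared variance gave an adjusted p of 0.0422. Among the UBA7 transcripts of NB4, the protein-coding one was at 13.0 and 11.3 TPM in JOA libraries and 7.20 and 6.18 TPM in control libraries, or 21.6 and 21.4% of the gene with JOA and 17.9 and 21.5% in controls. The rest was assigned to 9 retained-intron transcripts and 1 processed transcript. UBA7 shares 109 exon bases, 2.4% of its own, with the microRNA gene MIR5193 on the same strand, and no 31-base word of its longest coding transcript occurs in another gene.

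UBE2L6 (chr11:57551656-57568284, minus strand) was the most abundant tested member in Kasumi-1, at 12.4, 12.0 and 11.8 FPKM in JOA libraries, against 11.7, 10.3 and 10.5 FPKM in control libraries. The lowest JOA library stood just above the highest control library on the deposited values, and the log2 change of 0.14 had a standard error of 0.07 (limma adjusted p = 0.342, and 0.114 with the block). Under median-ratio scaling this change was 0.08 (limma adjusted p = 0.631), so the narrow separation in Kasumi-1 depends on the scaling. NB4 had 56.0 and 42.8 TPM in JOA libraries, against 33.3 and 31.4 TPM in control libraries, and here the groups were clearly apart. The log2 change was 0.59 with a standard error of 0.15 (limma adjusted p = 0.287, and 0.0357 with shared variance). Its main protein-coding transcript was at 52.5 and 41.3 TPM with JOA and 30.4 and 28.7 TPM in controls.

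ISG15, HERC5 and HERC6 did not separate in either line. ISG15 was at 2.24, 2.63 and 2.49 FPKM in JOA Kasumi-1 libraries and 2.41, 2.00 and 1.93 FPKM in controls, and at 127 and 50.6 TPM in JOA NB4 libraries and 92.2 and 56.8 TPM in controls. In NB4 the 2 libraries of 1 group thus differed more than the group means did. HERC5 was at 7.70, 7.79 and 9.87 FPKM in JOA Kasumi-1 libraries and 7.76, 7.88 and 8.09 FPKM in controls, and at 22.6 and 16.2 TPM in JOA NB4 libraries and 21.9 and 16.0 TPM in controls. HERC6 was at 1.28 to 2.02 FPKM in JOA and 1.31 to 1.56 FPKM in control Kasumi-1 libraries, and USP18 was under the filter there, with at least 33 fragments over all 6 libraries. In NB4, USP18 was at 15.1 and 6.20 TPM in JOA libraries and 9.82 and 6.07 TPM in controls, and 28.8% of the 31-base words of its longest coding transcript also occur in USP41, so its level is uncertain.

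**Figure D2:**
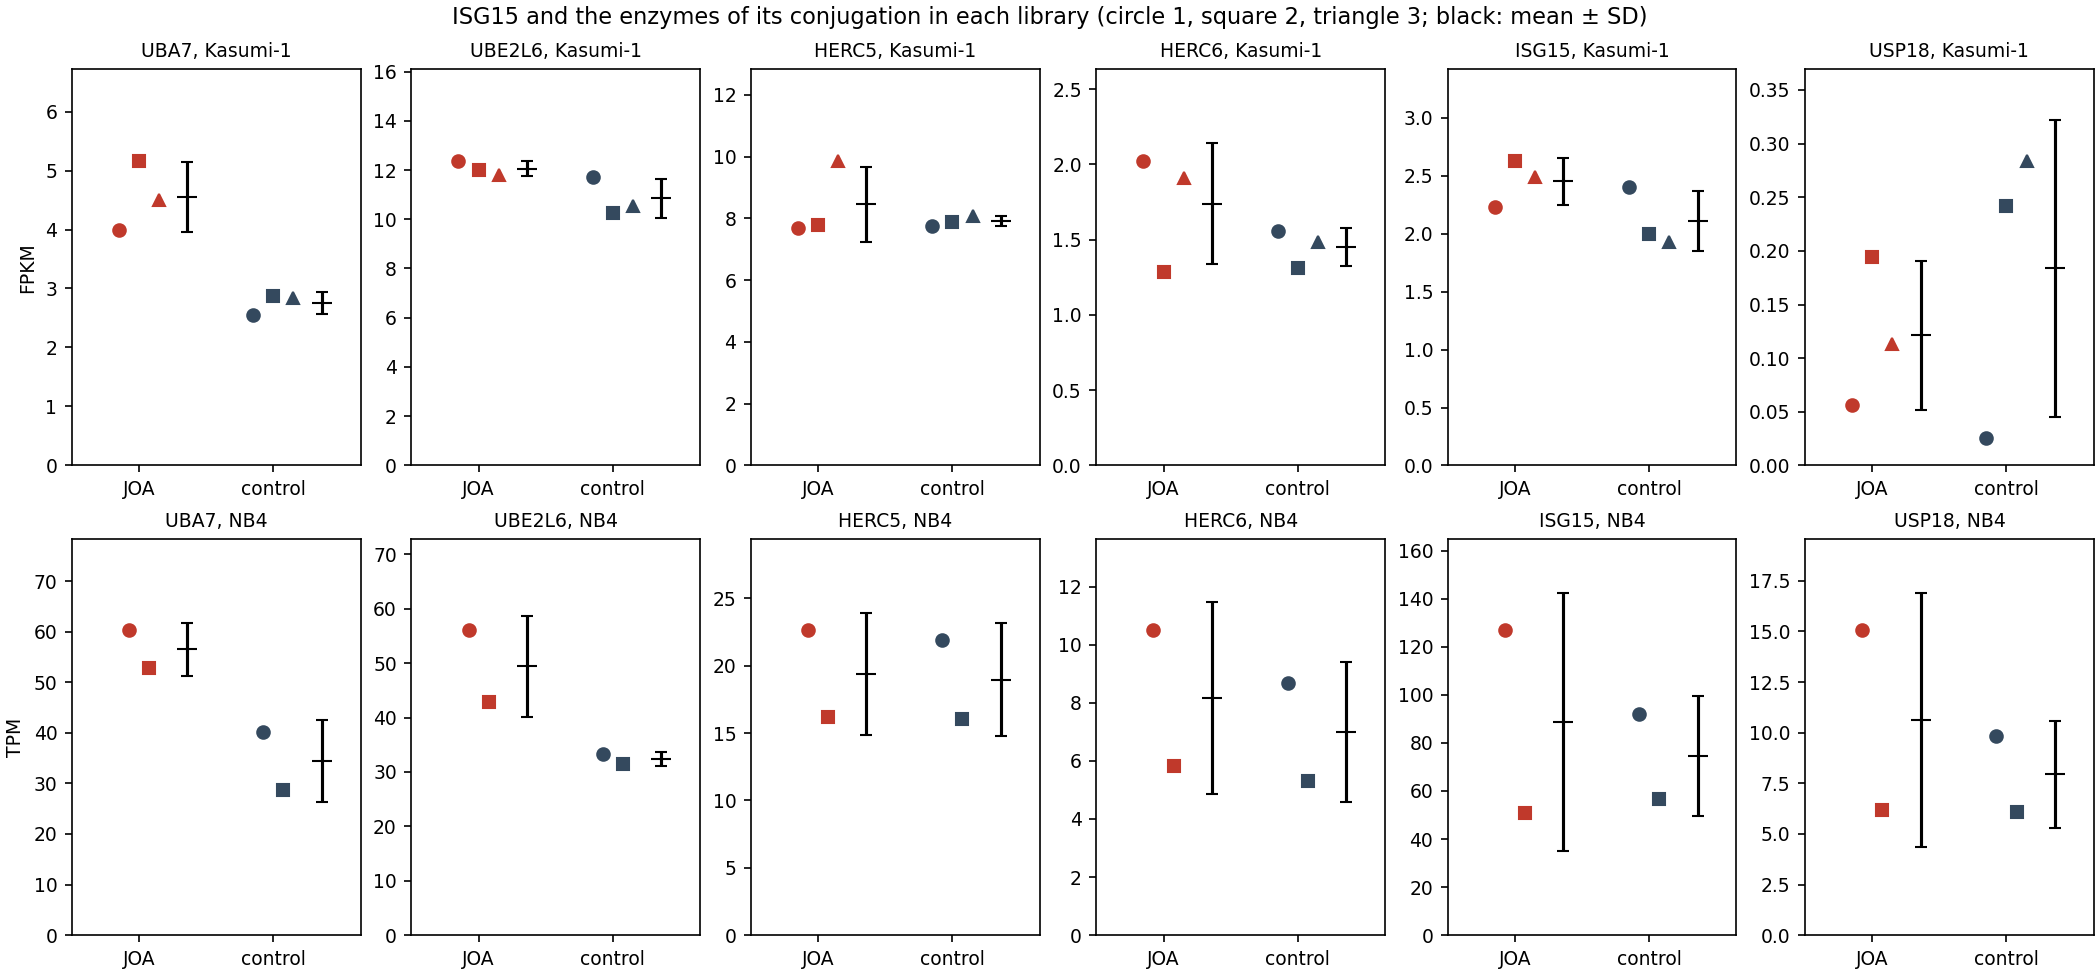
Level of ISG15 and of its conjugating and removing enzymes in every library (circle library 1, square 2, triangle 3) and the mean ± SD of each group in black, in FPKM for Kasumi-1 (top, n = 3 each) and TPM for NB4 (bottom, n = 2 each), JOA left of control. All JOA points of UBA7 and UBE2L6 lie above all control points in both lines, and those of HERC5, HERC6, ISG15 and USP18 overlap.

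Of the 4 listed factors that relay the interferon signal, IRF7, which is known to amplify interferon production, was the 1 tested in Kasumi-1. It was at 3.50, 2.94 and 4.28 FPKM in JOA libraries, against 2.40, 2.39 and 2.65 FPKM in control libraries. All JOA values were above all control values, with a log2 change of 0.39 and a standard error of 0.12 (limma adjusted p = 0.207, and 0.0533 with the block). In NB4, IRF7 was at 4.98 and 4.03 TPM in JOA and 6.94 and 2.41 TPM in control libraries, which overlapped, and its 3 matched transcripts there were all of the retained-intron class. STAT2, a subunit of ISGF3, was at 44.4 and 47.4 TPM in JOA NB4 libraries and 43.4 and 32.8 TPM in controls, apart by a small margin, with a log2 change of 0.28 and a standard error of 0.15 (limma adjusted p = 0.56). IRF9, also of ISGF3, was at 64.4 and 36.3 TPM in JOA and 49.0 and 25.4 TPM in control NB4 libraries, and IRF1, an early target of interferon signalling, at 39.5 and 28.6 TPM in JOA and 37.3 and 35.7 TPM in controls. Both overlapped, and the whole longest coding transcript of IRF9 (100% of its 31-base words) also occurs in the overlapping gene AL136295.5, so that its reads can be split between them.

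SAMD9, an antiviral protein that restrains growth, was the remaining Kasumi-1 member whose groups did not overlap. It was at 1.70, 1.84 and 1.48 FPKM in JOA libraries, against 1.20, 1.35 and 0.971 FPKM in control libraries. The log2 change of 0.30 had a standard error of 0.12 (limma adjusted p = 0.283, and 0.101 with the block). In NB4, SAMD9 overlapped, at 15.7 and 12.1 TPM in JOA and 13.0 and 8.49 TPM in control libraries. Its neighbour and relative SAMD9L was under the filter in Kasumi-1 and overlapped in NB4, at 9.76 and 5.01 TPM with JOA and 7.09 and 3.03 TPM in controls.

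The IFIT proteins bind foreign RNA and block its translation. IFIT3 in Kasumi-1 was at 4.31, 1.70 and 3.28 FPKM in JOA libraries and 3.64, 1.82 and 2.50 FPKM in controls, and IFIT2 at 1.66, 0.604 and 1.31 FPKM in JOA libraries and 1.66, 0.697 and 1.39 FPKM in controls. Library 2 was the lowest of its group for both genes, with JOA and without. IFIT1 and IFIT5 were under the filter, at 0.307 to 0.535 and 0.0882 to 0.135 FPKM in JOA and 0.211 to 0.659 and 0.0569 to 0.248 FPKM in control libraries. In NB4, IFIT1 was at 26.4 and 9.93 TPM with JOA and 19.2 and 10.9 TPM in controls, IFIT2 at 6.63 and 3.96 TPM with JOA and 4.54 and 3.21 TPM in controls, IFIT3 at 12.5 and 5.37 TPM with JOA and 9.33 and 6.51 TPM in controls, and IFIT5 at 5.35 and 2.92 TPM with JOA and 3.68 and 1.91 TPM in controls. All 4 overlapped, library 1 was above library 2 in each group, and 0 of 4 passed the test. They share few 31-base words with other genes, from 0.0753% (IFIT5 with IFIT1B) to 8.88% (IFIT2 with AL353751.1).

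Among the membrane proteins, IFITM1, IFITM2 and IFITM3 hinder the fusion of viruses with the cell, and BST2 (tetherin) holds budding virions. IFITM2 in NB4 was at 218 and 217 TPM in JOA libraries, against 205 and 209 TPM in control libraries, a narrow separation with a log2 change of 0.07 that turned to -0.03 under median-ratio scaling. IFITM1 was at 212 and 129 TPM with JOA and 148 and 104 TPM in controls, and IFITM3 at 1.49 and 2.20 TPM with JOA and 1.58 and 1.56 TPM in controls. Neither was separated, and levels within this family are uncertain because IFITM1 shares 40.4% of its 31-base words with IFITM2, IFITM2 shares 19.3% with IFITM3, and IFITM3 shares 24% with IFITM2. BST2 was at 314 and 189 TPM in JOA and 216 and 160.5 TPM in control NB4 libraries. In Kasumi-1 it was at 0.968, 2.42 and 0.70 FPKM in JOA and 1.09, 1.23 and 0.919 FPKM in control libraries, with JOA library 2 above the other 5.

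The OAS enzymes make the messenger that activates the nuclease RNase L. In NB4, OAS1 was at 82.7 and 33.6 TPM with JOA and 51.2 and 24.1 TPM in controls, and OAS2, OAS3 and OASL were at 2.19 to 32.1 TPM in JOA and 2.35 to 26.5 TPM in control libraries. All 4 overlapped and 0 passed the test. In Kasumi-1, OAS1 was listed at 0 in all JOA libraries and in 2 of the controls, with 0.0116 FPKM in control 2, and OASL was under the filter. The MX proteins are GTPases that trap viral capsids. MX2 was at 105.6 and 102 TPM in JOA and 98.9 and 98.5 TPM in control NB4 libraries, apart with a log2 change of 0.07 that was -0.03 under median-ratio scaling, and MX1 was at 13.2 and 9.25 TPM with JOA and 13.0 and 11.0 TPM in controls.

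Other members act in sensing and in processes that are less well defined. IFI35, which is known to bind the protein NMI, had the largest log2 change of the separated NB4 members. It was at 15.2 and 12.6 TPM in JOA libraries, against 8.95 and 7.19 TPM in control libraries, so that the JOA libraries lay well above the controls. The log2 change was 0.72 with a standard error of 0.18 (limma adjusted p = 0.278, and 0.0717 with shared variance). Its transcripts were uneven, and the separation held for the sum over them but not for the main protein-coding one. That transcript was at 9.35 and 4.01 TPM with JOA and 5.14 and 3.68 TPM in controls, which overlapped. Its main retained-intron one was at 2.27 and 5.43 TPM with JOA and 1.55 and 2.03 TPM in controls. In JOA library 2 the retained-intron one held 42.97% of the gene and the protein-coding one 31.73%. In Kasumi-1, IFI35 overlapped at 1.80, 1.02 and 1.68 FPKM with JOA and 1.23, 1.10 and 1.69 FPKM in controls.

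IFI6, a small membrane protein, was the most abundant member in NB4, at 444 and 119.5 TPM in JOA libraries and 322 and 179.7 TPM in controls. JOA library 1 was the highest and JOA library 2 the lowest of the 4, so the controls lay between them. In Kasumi-1, IFI6 was at 6.05, 5.25 and 4.59 FPKM with JOA and 5.88, 5.29 and 6.78 FPKM in controls. The RNA sensor IFIH1 (MDA5) was at 1.49 to 2.07 FPKM in JOA and 1.43 to 1.82 FPKM in control Kasumi-1 libraries, and at 13.7 and 8.54 TPM in JOA and 14.9 and 7.87 TPM in control NB4 libraries. RSAD2 (viperin), which makes a nucleotide that stops viral RNA synthesis, was at 1.31 and 0.972 TPM in JOA NB4 libraries and 2.96 and 1.25 TPM in controls, and it was under the filter in Kasumi-1. IFI27 was at 8.76 and 2.66 TPM in JOA NB4 libraries and 9.31 and 6.83 TPM in controls, and these 2 genes were the only tested members lower with JOA both in libraries 1 and in libraries 2. EPSTI1 was the most uneven, at 15.5 and 3.02 TPM with JOA and 8.70 and 4.98 TPM in controls.

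The last 10 members were PARP9 and PARP14, proteins of the ADP-ribosyltransferase family, the helicase-like DDX60, the ubiquitin ligase TRIM22, the nuclear body protein SP110, XAF1, which promotes cell death, the secreted glycoprotein LGALS3BP, the guanylate-binding protein GBP1, and IFI44 and IFI44L. PARP9 was at 16.3 and 9.03 TPM in JOA NB4 libraries and 10.8 and 6.16 TPM in controls, and PARP14 at 12.9 and 7.76 TPM with JOA and 8.54 and 4.73 TPM in controls. TRIM22 was at 37.3 and 22.1 TPM with JOA and 25.6 and 16.3 TPM in controls, SP110 at 79.3 and 56.9 TPM with JOA and 65.7 and 44.8 TPM in controls, and XAF1 at 58.3 and 29.5 TPM with JOA and 46.9 and 21.3 TPM in controls. In these 5, JOA library 2 lay below control library 1, so the groups overlapped. DDX60, LGALS3BP, IFI44 and IFI44L overlapped as well, between 1.60 and 36.9 TPM in JOA and 1.09 and 29.2 TPM in control libraries, and GBP1 was at 0.561 and 0.0917 TPM with JOA and 0.30 and 0.635 TPM in controls. In Kasumi-1, DDX60 was at 0.69 to 1.51 FPKM in JOA and 1.06 to 1.27 FPKM in control libraries, PARP9 at 0.956 to 1.36 FPKM in JOA and 0.972 to 1.27 FPKM in control libraries, and the others were under the filter or not analysed here.

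**Figure D3:**
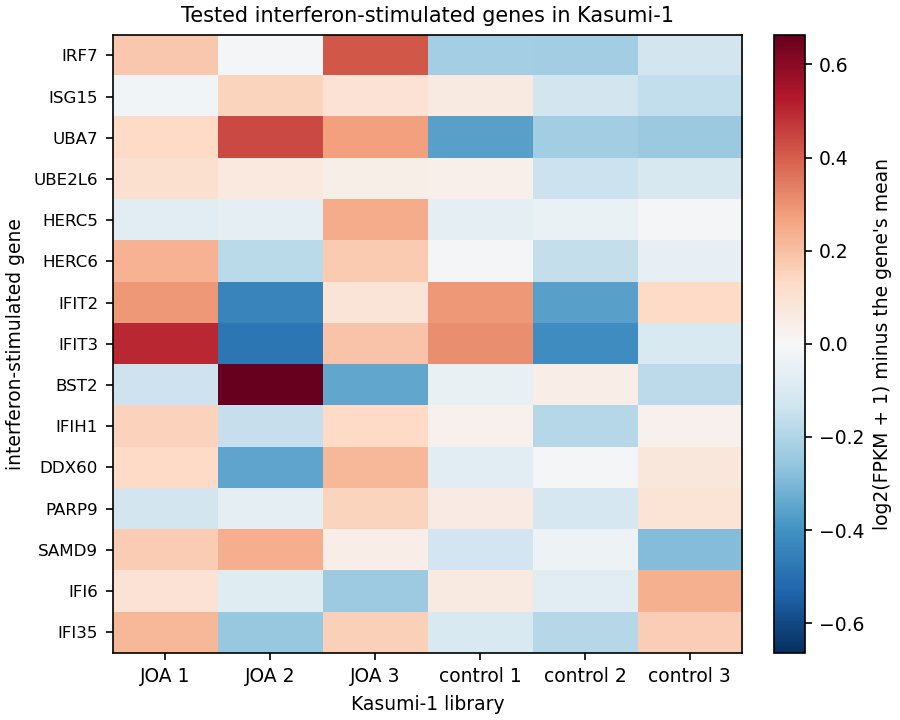
Each of the 15 tested interferon-stimulated genes (rows, grouped by role) in each Kasumi-1 library (columns, JOA left of control), as log2(FPKM + 1) minus the mean of the gene (red above, blue below). UBA7, IRF7 and SAMD9 are red or near white across JOA and blue or near white across controls, while IFIT2 and IFIT3 are blue in library 2 of both groups.

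The members of NB4 differed between libraries 1 and 2 in the same direction in both groups. Library 1 was above library 2 with JOA and without in 38 of the 41 tested members (92.7%), beside 3751 of all 12949 genes (29.0%), the exceptions being IFITM2, IFITM3 and STAT2. The median log2 difference of library 1 minus library 2 over the members was 0.70 with JOA and 0.62 in controls, while over all genes it was -0.00 with JOA and 0.07 in controls. In 35 of the 41 members this difference, averaged over the groups, was larger than the difference of JOA minus control (85.4%, beside 39.3% of all genes). The labels do not say what sets libraries 1 and 2 apart, and they tie no JOA library to a control library.

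Set beside the control of the same number, the members were higher with JOA by a median of 0.39 in libraries 1 and 0.30 in libraries 2, beside 0.05 and 0.13 over all genes. In 25 of the 41 the JOA library was higher for both numbers (61%, beside 41% of all genes), in 2 it was lower for both, and in 14 the sign differed between the numbers. Matching by number is a choice, since these libraries were not taken as pairs, and these medians and counts depend on it. ISG15 was 0.455 higher with JOA in libraries 1 and 0.164 lower in libraries 2 on the log2 scale. IFI6 was 0.463 higher and 0.585 lower, and EPSTI1 0.764 higher and 0.572 lower. UBA7 was higher for both, by 0.57 in libraries 1 and 0.854 in libraries 2, as was UBE2L6, by 0.734 and 0.436, and IFI35, by 0.707 and 0.736.

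In Kasumi-1, library 2 was the lowest of its group with JOA and without in 6 of the 15 tested members (HERC6, IFI35, IFIH1, IFIT2, IFIT3 and IRF7; 40%), beside 16.6% of all features. Library 1 was the lowest in 2 members and library 3 in 2, beside 20.9% and 16.9% of all features.

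**Figure D4:**
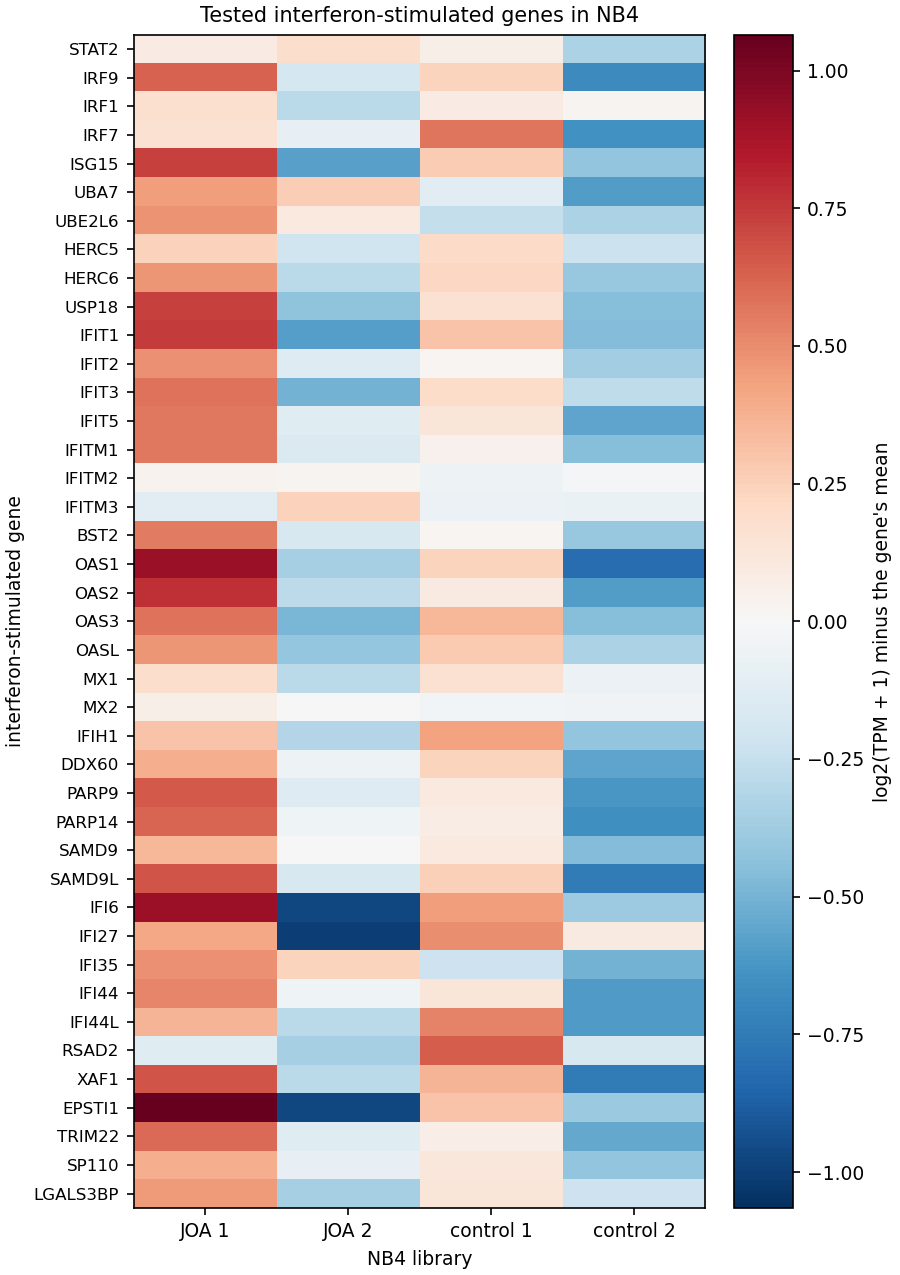
Each of the 41 tested interferon-stimulated genes (rows, grouped by role) in each NB4 library (columns, JOA left of control), as log2(TPM + 1) minus the mean of the gene (red above, blue below). JOA 1 and control 1 are red and JOA 2 and control 2 blue in most rows, while UBA7, UBE2L6 and IFI35 are red in both JOA libraries and blue in both controls.

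**Figure D5:**
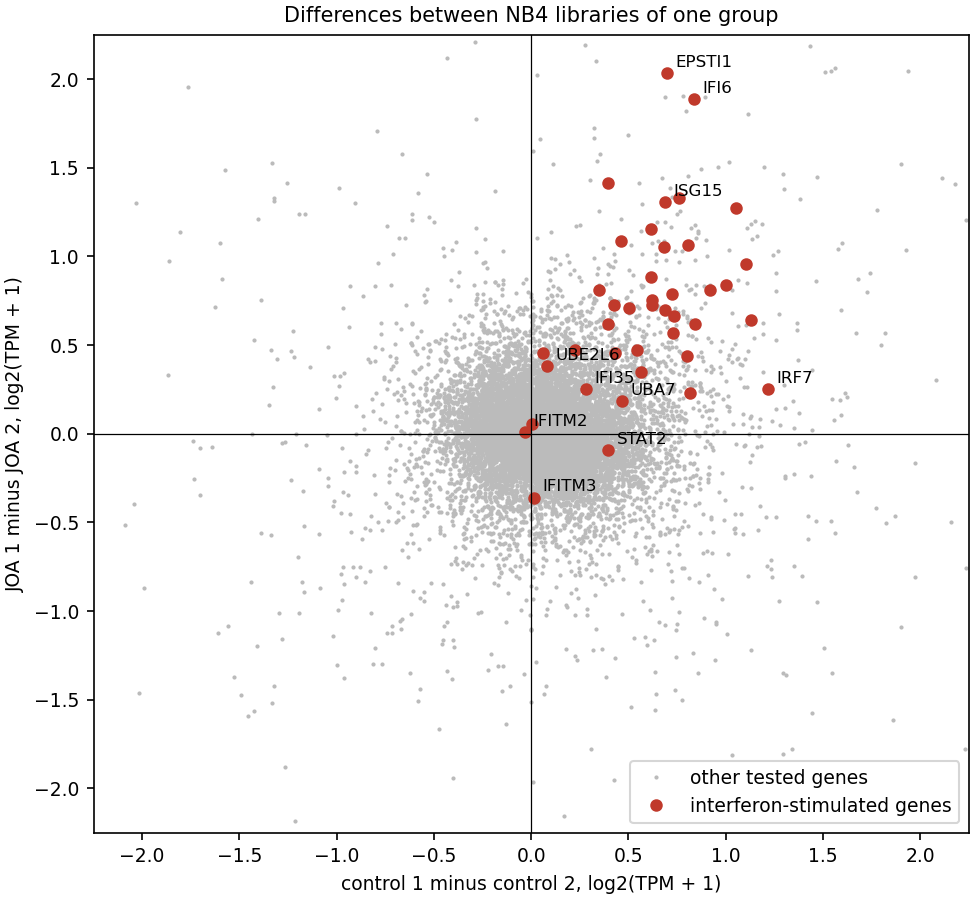
Difference between the 2 NB4 libraries of a group on log2(TPM + 1), JOA 1 minus JOA 2 (vertical) against control 1 minus control 2 (horizontal), for interferon-stimulated genes (red) and all other tested genes (grey, with 40 outside the axes). Most red points lie in the upper right corner, where library 1 is above library 2 in both groups, with EPSTI1 and IFI6 highest and IFITM2, IFITM3 and STAT2 outside that corner.

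The difference between the lines was tested directly on the 26 members found in both tables and past the filter in at least 1, in 1 fit over the 10 libraries whose tables were normalized separately. None of the 26 differed by limma at an adjusted p under 0.05, beside 0.193% of all 7243 genes, and the lowest adjusted p was 0.298. Members under the filter in Kasumi-1 entered through NB4 alone. On the log2(value + 1) scale their Kasumi-1 change was held near 0. Their difference therefore mostly restates the NB4 change and cannot compare the lines. For UBA7 the log2 change in Kasumi-1 minus that in NB4 was -0.15 with a standard error of 0.20 (limma adjusted p = 0.808). UBE2L6 and IFI35 had an unadjusted p under 0.05, with differences of -0.44 (standard error 0.15, limma adjusted p = 0.298) and -0.63 (standard error 0.24, limma adjusted p = 0.349). These 2 of 26 stand beside 11.7% of all genes at an unadjusted p under 0.05, and neither difference passed the adjusted test. IFI35 was low in Kasumi-1, near the filter. Its unadjusted limma p was 0.0969 with a pseudocount of 0.1 and 0.0829 with both lines rescaled to a common total.

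The wider interferon pathway, a further list of 62 ligands, receptors, kinases, sensors, feedback genes and induced genes, was read in the same way. In Kasumi-1, 34 were matched and 27 tested, of which 22 had positive fitted changes, or 81.5%, beside 61.9% of all features (15 of 26 after median-ratio scaling, beside 47.5%). None was called without the block and 1 of the 27, MAVS, rose with it, beside 8.14% of all features called and 6.08% called higher. MAVS, the adaptor of the RNA sensors on mitochondria, was at 27.9, 29.9 and 28.9 FPKM in JOA libraries, against 24.2, 23.7 and 22.9 FPKM in control libraries. Its groups were well apart, with a log2 change of 0.28 (standard error 0.05, limma adjusted p = 0.116, and 0.0356 with the block). In NB4, 58 were matched and 49 tested, of which 40 had positive fitted changes, or 81.6%, beside 66.2% of all genes (33 after median-ratio scaling, beside 49%). Limma called 1 of the 49, CXCL10, which fell, beside 0.00772% of all genes.

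The receptor chain IFNAR1 and the kinases JAK1 and TYK2 were expressed in both lines. In Kasumi-1, IFNAR1 was at 10.9, 11.0 and 11.6 FPKM with JOA and 11.5, 12.3 and 11.8 FPKM in controls, and in NB4 at 22.4 and 21.5 TPM with JOA and 21.5 and 29.0 TPM in controls. IFNAR2 in NB4 was at 14.5 and 17.6 TPM with JOA, above 13.7 and 11.9 TPM in controls, and it was not analysed here in Kasumi-1. JAK1 lay above its controls in every JOA library of both lines, at 22.6, 23.3 and 23.9 FPKM with JOA and 20.3, 21.6 and 19.8 FPKM in controls of Kasumi-1, and at 31.04 and 29.2 TPM with JOA and 26.6 and 18.5 TPM in controls of NB4. The log2 changes were 0.17 with a standard error of 0.06 in Kasumi-1 (limma adjusted p = 0.216) and 0.42 with a standard error of 0.18 in NB4 (limma adjusted p = 0.465). TYK2 overlapped in both, at 16.9, 16.7 and 21.9 FPKM with JOA and 14.3, 15.8 and 17.7 FPKM in controls of Kasumi-1, and at 442 and 437 TPM with JOA and 423 and 445 TPM in controls of NB4.

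Of the remaining pathway genes with libraries apart, the 3 with the largest fitted changes in Kasumi-1 were IFNGR2, a receptor chain for interferon gamma, PARP12, an antiviral ADP-ribosyltransferase, and TRIM21, an antibody receptor inside cells. IFNGR2 was at 8.29, 6.82 and 8.69 FPKM with JOA and 5.71, 6.51 and 5.97 FPKM in controls (log2 change 0.33, limma adjusted p = 0.188). PARP12 was at 3.30, 3.41 and 4.02 FPKM with JOA and 2.48, 2.90 and 2.66 FPKM in controls (log2 change 0.31, limma adjusted p = 0.206). TRIM21 was at 7.52, 7.04 and 9.02 FPKM with JOA and 6.79, 5.36 and 6.27 FPKM in controls (log2 change 0.31, limma adjusted p = 0.249). None of the 3 passed the test with the block either. In NB4 they were IFI16, a DNA sensor, PARP12, and ISG20, an RNA exonuclease. IFI16 was at 70.7 and 59.3 TPM with JOA and 46.9 and 28.3 TPM in controls (log2 change 0.81, limma adjusted p = 0.3), and PARP12 at 75.4 and 57.6 TPM with JOA and 56.8 and 32.6 TPM in controls (log2 change 0.60, limma adjusted p = 0.454). ISG20 was at 0.909 and 0.444 TPM with JOA and 1.37 and 1.35 TPM in controls (log2 change -0.51, limma adjusted p = 0.548), and none of the 3 passed this test.

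CXCL10, a chemokine that draws T cells and a common readout of interferon signalling, went the other way from most of the list. It was at 0.585 and 0.224 TPM in JOA NB4 libraries, against 9.11 and 8.27 TPM in control libraries. Both JOA libraries were far below both controls, with a log2 change of -2.80 and a standard error of 0.24 (limma adjusted p = 0.0476), which understates the change because of the pseudocount of 1. The adjusted p ran from 2.53e-06 to 0.936 over the 9 alternatives, and 7 of them ended the call, among them a pseudocount of 0.1, median-ratio scaling and leaving out any 1 library. In Kasumi-1, CXCL10 was at 0.0512, 0.0502 and 0 FPKM in JOA libraries and 0, 0 and 0.103 FPKM in control libraries, too low to show a change.

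The levels of the list differed between the lines as measured, though the tables differ in unit and were normalized separately. The 4 most abundant tested members were UBE2L6 at a mean of 11.5, HERC5 at 8.18, IFI6 at 5.64 and UBA7 at 3.65 FPKM over the 6 Kasumi-1 libraries. In NB4 they were IFI6 at 266, BST2 at 220, IFITM2 at 212 and IFITM1 at 148 TPM over the 4 libraries. By rank within its own line, UBE2L6 was at or above 67.8% of the features tested in Kasumi-1, and IFI6 was at or above 96.7% of the genes tested in NB4 but 45.4% of the features tested in Kasumi-1.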

How the data were processed

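The authors deposited 1 table per line. The Kasumi-1 values are FPKM per the deposited file's name, with 29053 rows labelled by sequence record, of which 37.5% (45.8% of the summed FPKM) were matched to a gene symbol through RefSeq on GRCh38.p14. The deposited NB4 file carries FPKM in its name, yet its columns total 999679 to 999758, which is how TPM behaves, and it was read as TPM. GENCODE held 93.9% of its 121005 transcripts, which were added up per gene, and the rest carried 3.04% of the TPM. Per the submitters' processing notes, the tools included HISAT2, HTSeq, Cufflinks and Trimmomatic and the build was hg38, without roles, and the libraries were made with a stranded mRNA kit per the labels' protocols. Strand use in the counting is not given in the sources used here, so opposite-strand overlaps cannot be told apart (XAF1 shares 38.3% of its exon bases with PRAL, IRF1 22% with C5orf56, IFITM3 21.3% with AC136475.5 and SP110 18.4% with AC009950.1). The treated NB4 libraries were placed in the JOA group by their titles, although their source label reads I13.

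Values were analysed as log2(value + 1) with limma 3.58.1 (R 4.3.3; tables read with Python 3.11.15), with a variance trend and group as the only term, on features at 1 or more in 3 (Kasumi-1) or 2 (NB4) libraries, calling features at a Benjamini-Hochberg adjusted p under 0.05 over the whole table. Tests are two-sided, and a fold change on this scale understates the change of low genes. The difference between lines came from 1 fit over the 10 libraries. The fits were also run on simulated data, whose outcome is not given here. Changes there were placed only in features above a set level, which leaves out low members. The difference shared by NB4 libraries 1 and 2 was not simulated. Fragments per member are the fewest whole numbers that give all 6 Kasumi-1 values within 0.02 of a fragment (27 of 27 members), and relative depth came from 6977 low rows that were whole multiples within 0.01. Such counts are lower limits and cover counting error only. Replicate numbers come from the titles. JOA and control libraries of Kasumi-1 with the same number shared their departures from the group means, with correlations of 0.330, 0.500 and 0.424 (other pairs -0.061 or below), and this, rather than any label, is the ground for pairing them.

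The members, the pathway and marker lists and the roles were chosen with earlier results of these data known. Values in every library are given for up to 6 rises and 6 falls per line among members whose groups do not overlap, for members called in any fit, the 4 most abundant per line, the IFIT and IFITM families, and CXCL10, IFNAR1, IFNAR2, JAK1 and TYK2, as well as pathway genes called or among the 3 largest changes without overlap. A further gene of that rule is not reported here. Other members with values in the text were named to fill out their role group. Alternatives were a pseudocount of 0.1, no filter, median-ratio scaling, a replicate block, leaving out libraries, variance shared over both lines, and a common total.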

Additional observations from a re-analysis of the deposited data

Results flagged for a closer look

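For CXCL10 the fitted log2 change in Kasumi-1 minus that in NB4 was 2.80, with a standard error of 0.18 (limma adjusted p = 4.08e-05 over 7243 genes, and 3.41e-05 to 0.0403 over 15 alternatives), which passed the test of the difference between lines. This value restates the NB4 change and does not show that the lines respond differently. CXCL10 was at 0.585 and 0.224 TPM with JOA and 9.11 and 8.27 TPM in controls of NB4, lower in both JOA libraries, but at 0.103 FPKM or less in every Kasumi-1 library and under the filter there. On the log2(value + 1) scale its Kasumi-1 change was therefore held near 0, and a fall could not have been seen in that line.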

How the results depend on the processing

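In Kasumi-1, limma called 985 features with the replicate block, 1115 with the block and median-ratio scaling, 949 with the block and a pseudocount of 0.1, and 0 to 1 with single libraries left out, against 0 in the unblocked fit. UBA7 was the 1 interferon-stimulated gene called in each of those blocked fits with all pairs (log2 change 0.48 to 0.70 over 15 alternatives), against 0 without the block. The median over the members was 0.00 with no filter, which adds 12 low members. In NB4 limma called 0 genes with a pseudocount of 0.1, with no filter, with median-ratio scaling and in the range without single libraries (0 to 0), 150 with the replicate block and 155 with shared variance, against 1. The members called were 1 with the block (UBA7) and 2 with shared variance, and IFI16 of the pathway was called with the block. Over all genes, same-numbered NB4 libraries correlated at 0.067 in their deviations, so they were not taken as pairs, although library 1 was above library 2 in most members. With the block 16 members had an unadjusted limma p under 0.05, against 3 without it. The block takes out the difference between libraries 1 and 2 and raised the calls over all genes as well. The share of all genes at that p under the block was not taken, so the 16 cannot be read as particular to the members. IFITM2 and MX2 turned to -0.03 with median-ratio scaling, and the median over NB4 members ran from -0.03 to 0.66 without single libraries. For the difference between lines, the count of 14 genes became 2 with a pseudocount of 0.1, 36 with no filter, 36 with the replicate block, 1 with a common total, and 2 to 109 without single libraries. The median over its members, which include those under the filter in Kasumi-1, ran from -0.64 to 0.11. The UBA7 difference ran from -0.39 to 0.08, the positive value being without NB4 control 2. The cause of these moves was not tested. Other directions of the genes given a log2 change held under every alternative. Precision in NB4 is limited by 2 libraries per group, and every call beyond CXCL10 came from a block or a shared variance, which takes the spread to be equal in both lines.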
